A study of Homo sapiens with 38 samples.

Results

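In 8 of the 38 RNA sequencing libraries, the duplex siVPS4B#1 was either given to HCT116 cells together with siVPS4A#2 or replaced by a control duplex.
HCT116 is an established human colorectal carcinoma cell line.
The 4 siVPS4A+B#1 libraries came from cells given 30 nM siVPS4A#2 with 30 nM siVPS4B#1, and the 4 siVPS4A#2 libraries from cells given 30 nM siVPS4A#2 with 30 nM of the non-targeting duplex siCTRL#1.
Both groups were collected 72 h after transfection, and libraries were chosen by their labels and matched by replicate number, 1 to 4, which the labels tie to a batch.
The same VPS4A duplex at the same dose stood on both sides, so that the comparison asks what changes when a VPS4B duplex takes the place of the control duplex in VPS4A-silenced cells.
The silencing is transient, rests on 1 duplex per gene in 1 cell line and leaves some mRNA, and loss of VPS4B cannot be told apart from any other effect of siVPS4B#1 within these 8 libraries.
The study describes its replicates as independent experiments, and the labels give each only a batch letter.

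VPS4A and VPS4B are closely related AAA ATPases that pull apart ESCRT-III filaments, the membrane-remodelling polymers that close multivesicular bodies, reseal the plasma membrane and the nuclear envelope, and sever the bridge between dividing cells.
Sorting of ubiquitinated receptors into multivesicular bodies ends their signalling, and receptors of the TNF family are among those sorted.
NF-κB is a family of dimeric transcription factors held back by inhibitor proteins, and many of its target genes code for chemokines, survival factors and its own inhibitors.
Replication-dependent histone genes, DNA replication genes and mitotic genes are transcribed in phases of the cell cycle, and epithelial cancer lines in culture express them at high levels.

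The silenced genes were examined first.
Levels are given throughout in RPM, reads per 1000000 reads after TMM scaling, and fold changes as log2 of values to which 1 was added, which understates the change of genes with few reads.
VPS4B (NM_004869, minus strand of chromosome 18, 61056423 to 61089716 of GRCh37) had 19.8, 14.3, 21.9 and 22.2 RPM in siVPS4A#2 replicates 1 to 4.
It had 0.543 ± 0.338 (SD, n = 4) in siVPS4A+B#1, from 2 to 7 reads per library, or 2.64% of the siCTRL#1 mean.
The groups did not overlap (log2 fold change -3.74, SE 0.372, limma with Benjamini-Hochberg adjustment over all genes, adjusted p = 2.57e-09, and 2-sided exact permutation p = 0.0286, the smallest that 4 against 4 allows).
VPS4A (NM_013245) had 5.86, 6.20, 8.85 and 10.4 RPM in siVPS4A#2 and 13.05, 33.9, 22.6 and 10.7 in siVPS4A+B#1, so every library of the pair lay above every library with siVPS4A#2.
The residual VPS4A mRNA was 4.14% of the siCTRL#1 mean with siVPS4A#2 and 10.6% with siVPS4A+B#1 (log2 fold change 1.15, SE 0.301, limma adjusted p = 0.00347, exact permutation p = 0.0286).
Under scaling by library totals alone the log2 difference was 1.00 and the exact permutation p was 0.0571.
VPS4A was thus silenced in both groups but less deeply where siVPS4B#1 was present, and the part of this gap in the results below was not tested.

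The 8 libraries held between 6259115 and 10559676 reads over the listed genes, and 3 reads, taken as the floor, were worth at most 0.479 RPM.
Among the remaining libraries, the library labelled siVPS4A#1 replicate 2 stood apart and went against its label: it had 669257 reads, while the other 37 of all libraries had at least 5090666.
Its VPS4B, which that label does not target, lay at 1.62 RPM, from 1 read, against 21.6 to 32.0 in the other 4 siVPS4A#1 libraries, and its VPS4A at 11.3 against 1.64 to 3.51.
It also had 304 RPM of CXCL8 against 2.33 to 4.42, 274 of BIRC3 against 5.06 to 10.9 and 6422 of SQSTM1 against 741 to 951.
It is in neither group of the first comparison, but it enters the estimate of the spread and the baseline of the second pair of duplexes, for which many values are given with and without it.
Of 10 epithelial markers 9 were listed, with a summed level of 5190 to 6680 RPM in siVPS4A#2 and 7640 to 9190 in siVPS4A+B#1.
Fibroblast markers (2 of 6 listed) summed to 16.6 to 35.8 and 23.4 to 41.2, and endothelial markers (2 of 4 listed) to at most 1.73.
The single listed blood cell marker of 7, CD68, lay at 5.28 to 9.93 and 90.3 to 179 RPM, and its part in the results was not tested.
In a bulk library, fewer cells that express a gene and less of its RNA per cell cannot be told apart.

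Genes were called at a limma adjusted p under 0.05, over all 12627 genes, together with a fold change of 1.5 or more.
Addition of siVPS4B#1 raised 1471 genes (11.6% of those tested) and lowered 1338 (10.6%), and 5121 genes had an unadjusted p under 0.05.
The median log2 fold change over all genes was -0.01, the median of its size 0.31 and the median standard error 0.19.
The balance of the directions depended on the scaling: with library totals alone the median shifted by -0.163 and the counts were 968 higher and 1980 lower.
Among the genes that rose, 517 changed at least 2-fold and 70 at least 4-fold, and 1402 had the same sign in all 4 matched pairs.
Among those that fell, 431 reached 2-fold and 22 reached 4-fold, and 1273 had the same sign in all pairs.
The 2 groups did not overlap, with siVPS4A+B#1 above, for 1844 of all genes (14.6%) and, with siVPS4A+B#1 below, for 1676 (13.3%). These included 1257 of the genes called higher and 1101 of those called lower.

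The 12 largest rises included genes for a chemokine, survival and receptor proteins of the TNF pathway, a peptidase and an autophagy receptor. They were taken only from genes whose groups did not overlap and whose 4 matched pairs had the same sign.
CXCL8 (chromosome 4, 74606236 to 74609433 of GRCh37), the neutrophil-attracting chemokine interleukin-8, had 3.20, 2.51, 2.76 and 3.62 RPM in siVPS4A#2 replicates 1 to 4.
In siVPS4A+B#1 it had 253, 126, 260 and 345.0 (log2 fold change 5.86, SE 0.69, limma adjusted p = 6.17e-08), the largest rise of any gene tested.
BIRC3 (chromosome 11, 102188215 to 102210134), the ubiquitin ligase cIAP2 that blocks caspase-8 activation, went from 6.31, 7.26, 7.13 and 5.04 to 298, 145, 365 and 288 (5.14, SE 0.542, adjusted p = 7.89e-09).
Both genes were flat across the 4 siVPS4A#2 libraries and far above them in each library of the pair, with replicate 2 the lowest.
TNFRSF9 (chromosome 1, 7975931 to 8003225), the costimulatory receptor 4-1BB, was at 0.366 to 0.924 RPM in siVPS4A#2 and at 31.9, 20.1, 57.6 and 71.2 in siVPS4A+B#1 (4.68, adjusted p = 2.76e-07).
IL32 (chromosome 16, 3115298 to 3132193), a proinflammatory cytokine, had between 0 and 5 reads in each siVPS4A#2 library and 31.0, 13.98, 26.8 and 37.8 RPM in siVPS4A+B#1 (4.44, adjusted p = 5.67e-08).
For both, the siVPS4A#2 level was at or near the floor, so the size of the fold depends on the value of 1 added before taking logs.

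**Figure D1:**
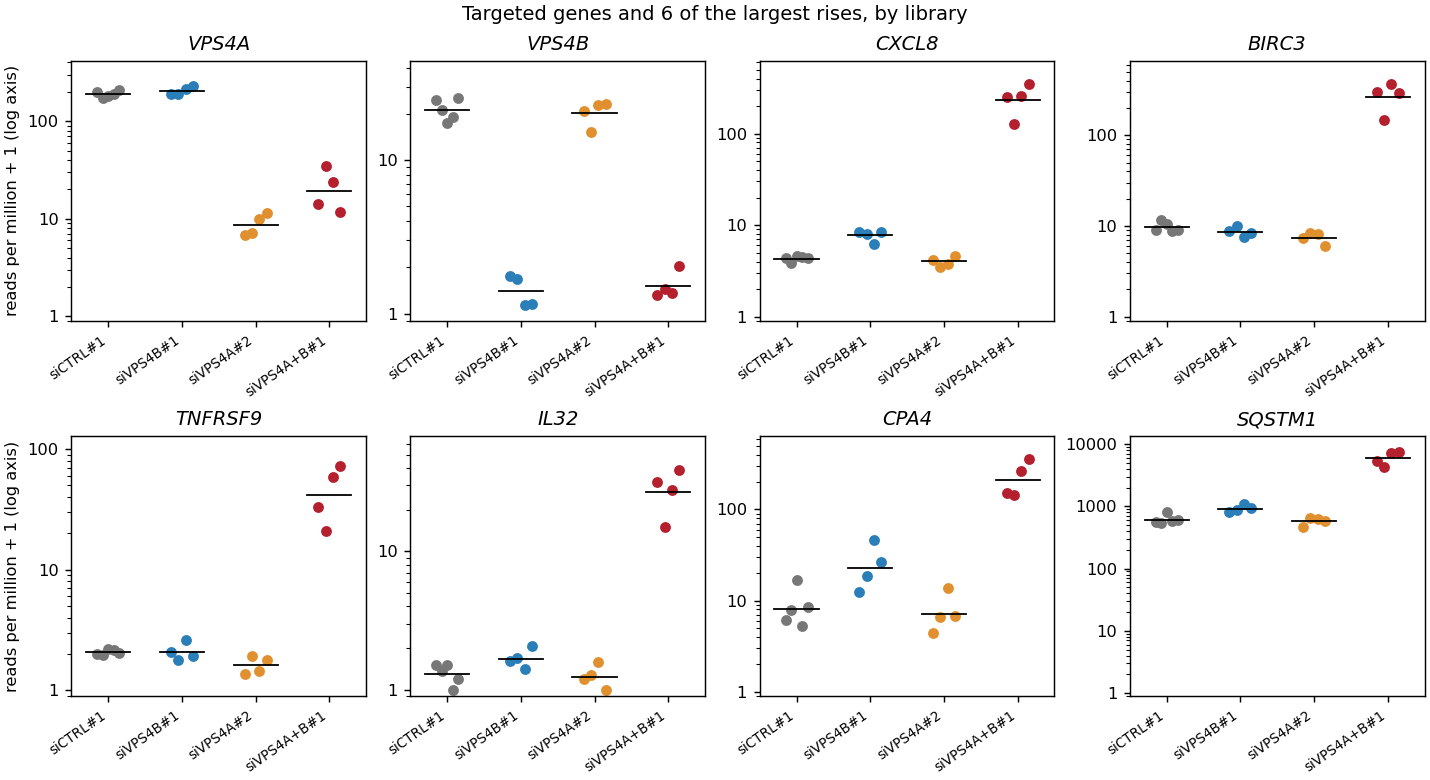
Level of the 2 targeted genes and 6 of the largest rises in each library of siCTRL#1 (5 libraries) and of siVPS4B#1, siVPS4A#2 and siVPS4A+B#1 (4 each), as RPM plus 1 on a log axis, with bars at the means of the log values. CXCL8, BIRC3, TNFRSF9 and IL32 lie in every siVPS4A+B#1 library above all libraries of the 3 other conditions, VPS4B is low in both conditions with siVPS4B#1, and VPS4A is higher in siVPS4A+B#1 than in siVPS4A#2.

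Promoters of 3 of these genes are shown because each carries the κB element bound by NF-κB and each was near the floor or at a low level without siVPS4B#1. Windows run from 250 bases before to 50 bases after the start in RefSeq (GRCh38.p14), and they matched 10206 of the 12474 genes with a symbol. The κB consensus was searched on both strands. Its matches, in capitals, begin 199 and 135 bases before the start of BIRC3 (chr11:102317234-102317533, plus strand), 99 and 98 bases before that of IL32 (chr16:3065153-3065452, plus strand) and 74 and 73 bases before that of TNFRSF9 (chr1:7940790-7941089, minus strand), where matches that differ by 1 base overlap.
BIRC3: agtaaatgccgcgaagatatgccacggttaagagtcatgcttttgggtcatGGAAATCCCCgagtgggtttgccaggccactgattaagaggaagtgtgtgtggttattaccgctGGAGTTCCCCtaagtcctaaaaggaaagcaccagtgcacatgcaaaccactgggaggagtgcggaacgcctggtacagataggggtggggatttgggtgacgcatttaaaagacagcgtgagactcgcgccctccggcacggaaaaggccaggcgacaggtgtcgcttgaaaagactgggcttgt
IL32: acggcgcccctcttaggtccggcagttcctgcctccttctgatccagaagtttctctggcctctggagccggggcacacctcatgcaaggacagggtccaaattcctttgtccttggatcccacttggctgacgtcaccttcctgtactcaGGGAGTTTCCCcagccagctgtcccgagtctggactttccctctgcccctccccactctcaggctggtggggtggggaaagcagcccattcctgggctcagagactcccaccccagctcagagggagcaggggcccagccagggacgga
TNFRSF9: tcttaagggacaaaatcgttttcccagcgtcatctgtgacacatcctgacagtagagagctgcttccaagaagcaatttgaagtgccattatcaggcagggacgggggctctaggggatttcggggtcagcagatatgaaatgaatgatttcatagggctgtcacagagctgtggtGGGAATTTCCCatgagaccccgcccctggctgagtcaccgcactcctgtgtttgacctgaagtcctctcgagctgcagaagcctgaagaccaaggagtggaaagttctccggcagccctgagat

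The κB consensus was found in 13.3% of all promoter windows, in 181 of the 1171 windows of genes called higher (15.5%), in 7 of 13 windows of chemokine and cytokine genes (53.8%), in 4 of 9 of NF-κB feedback inhibitors (44.4%) and in 2 of 4 of NF-κB subunits (50%).
It lay in 2 of 15 windows of cIAP, TRAF and NIK genes (13.3%), in 3 of 25 of AP-1 genes (12%) and in 0 of 18 of NRF2 targets.
The window of CXCL8 held no match, which says only that these letters are not in it.
These shares describe letters and not binding, and matches on both strands of the same site were counted as 1 window.

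All 5 NF-κB subunits were called higher (median log2 fold change 0.87, against -0.01 over all genes), but by unequal amounts.
RELB (chromosome 19, 45504719 to 45541450), the partner of p52 in the noncanonical pathway, went from 13.4, 15.6, 17.4 and 15.8 RPM to 119, 92.8, 133 and 152 (2.91, SE 0.325, adjusted p = 2.49e-08).
NFKB2 (chromosome 10, 104153867 to 104162281), which encodes the p100 precursor of p52, went from 175, 179, 146 and 135 to 737, 640, 807 and 1201 (2.38, adjusted p = 3.42e-07).
The groups did not overlap for either gene.
NFKB1, the p105 precursor of p50, had a log2 fold change of 0.87 (adjusted p = 0.00187) and RELA, the p65 subunit, 0.61 (adjusted p = 0.00648).
REL changed by 0.68 with overlapping groups (adjusted p = 0.0449) and was no longer called without replicate 1 (0.69, adjusted p = 0.136), replicate 3 (0.62, 0.196) or replicate 4 (0.42, 0.385).
RELB and NFKB2 reached 2-fold, and 3 subunits were called without replicate 1 and without replicate 4.

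Inhibitors that NF-κB itself induces rose with it: 8 of 10 were called higher and none lower (median 1.06).
NFKBIA, the inhibitor IκBα, had 83.5, 82.0, 74.5 and 69.8 RPM in siVPS4A#2 and 393, 300.2, 256 and 380.3 in siVPS4A+B#1 (2.07, SE 0.27, adjusted p = 3.7e-07).
TNFAIP3, the ubiquitin-editing enzyme A20, went from 2.76 to 3.57 up to 11.2 to 16.6 (1.88, adjusted p = 7.92e-05).
The A20-binding protein TNIP1 (1.59), the deubiquitinase CYLD (1.24) and NFKBIE, the inhibitor IκBε (1.16), rose as well.
Of 17 chemokines and cytokines measured, of 30 listed, 13 rose and 1 fell (median 0.94).
Besides CXCL8 and IL32 they included CSF1, the macrophage growth factor, from 3.66, 6.34, 3.45 and 7.88 to 24.5, 30.2, 39.0 and 48.2 (2.55, adjusted p = 1.17e-07), as well as EBI3, a subunit of interleukins 27 and 35 (1.77), and IL18 (1.53).

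In the group of cIAP, TRAF and NIK genes, which relay signals from TNF receptors, 6 of 18 rose and none fell (median 0.40).
MAP3K14, the kinase NIK that starts noncanonical NF-κB signalling, went from 7.78, 6.60, 5.06 and 8.04 to 45.0, 54.7, 35.8 and 45.4 RPM (2.56, SE 0.305, adjusted p = 7.63e-08).
BIRC2 (cIAP1) rose by 1.5, the caspase inhibitor XIAP by 1.34 and TRAF4 by 0.94 on the log2 scale.
Among 21 TNF receptor superfamily genes 6 rose and 1 fell (median 0.25), so that most members did not follow TNFRSF9.
The TRAIL receptor TNFRSF10A rose by 1.08, while EDAR, the receptor for ectodysplasin, fell by 1.58 on the log2 scale.
In BIRC2 the 4 siVPS4A+B#1 libraries had 59.7, 69.9, 103 and 158 RPM against 23.5 to 45.4 in siVPS4A#2, without overlap.

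Of 34 AP-1 and immediate-early genes 15 rose and 2 fell (median 0.52), with DUSP1, a phosphatase of MAP kinases, going from 25.4, 25.7, 13.9 and 30.3 to 99.8, 138, 97.2 and 209 RPM (2.44, adjusted p = 1.79e-06).
The transcription factor KLF6 (2.15), the ERK phosphatase DUSP5 (1.96), the mRNA-destabilizing protein ZFP36 (1.93) and DUSP4 (1.28) rose too.
NR4A1 (chromosome 12, 52416616 to 52453291), an orphan nuclear receptor of the immediate-early class, went from 12.4, 12.7, 10.1 and 15.6 to 240.1, 232, 122 and 216 (3.86, SE 0.528, adjusted p = 8.58e-07).
Another MAP kinase phosphatase moved the other way, since DUSP6 had 625, 421, 263 and 406 RPM in siVPS4A#2 and 132, 266, 104 and 57.6 in siVPS4A+B#1 (-1.75, adjusted p = 0.000294), with replicate 2 of the pair above the lowest siVPS4A#2 library.
Of 30 p53 targets 8 rose and 2 fell (median 0.09), among them CDKN1A, the inhibitor p21, from 463, 471, 491 and 638 to 2114, 1741, 2013 and 1524 (1.84, adjusted p = 2.64e-09), and the checkpoint protein SFN (2.29). The siCTRL#1 mean of CDKN1A was 708 RPM, above every siVPS4A#2 library.
The AP-1 motif TGANTCA was found in 4.55% of all promoter windows, in 7.43% of those of genes called higher, in 1 of 25 of the AP-1 and immediate-early genes (4%) and in 5 of 13 of the chemokine and cytokine genes (38.5%).

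Among targets of NRF2, the transcription factor of the oxidative stress response, 16 of 24 rose and none fell (median 0.83).
SQSTM1 (chromosome 5, 179233398 to 179265078) codes for p62, an autophagy receptor that also binds the NRF2 repressor KEAP1.
It had 464, 653, 628 and 571 RPM in siVPS4A#2 and 5267, 4233, 7188 and 7450.0 in siVPS4A+B#1 (3.35, SE 0.327, adjusted p = 2.09e-09), the most abundant of the 12 largest rises.
HMOX1, the haem-degrading enzyme, went from 31.6, 47.1, 56.7 and 49.0 to 290, 165, 485 and 355 (2.71, adjusted p = 2.56e-09).
OSGIN1 (2.22) and the sulfiredoxin SRXN1 (1.78) rose as well.
The summed level of the 24 genes was 9350 ± 1020 (SD, n = 4) in siVPS4A#2 and 24500 ± 4150 in siVPS4A+B#1.
The ARE core TGACNNNGC lay in 5 of 18 windows of this list (27.8%) and in 15.2% of all windows.

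Autophagy genes rose in part: 13 of 25 were called higher and none lower (median 0.67), SQSTM1 being counted here too.
The receptor OPTN rose by 1.36, GABARAPL1, an ATG8 homologue that coats autophagosomes, by 1.16, and the phosphoinositide-binding WIPI1 by 0.84 on the log2 scale.
The sum of this list went from 1910 ± 113 to 8260 ± 1810 (SD, n = 4 each), of which SQSTM1 made up the larger part.
Of 45 lysosomal and V-ATPase genes 12 rose and none fell (median 0.41), with the protease CTSD going from 286 ± 24.8 to 717 ± 49.3 RPM (1.32, adjusted p = 6.66e-08), and with NEU1 (1.27) and the transcription factor TFE3 (1.21) next to it.

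Sterol synthesis genes, which SREBP2 switches on when membrane cholesterol is low, rose widely: 17 of 25 were called higher and none lower (median 0.80).
HMGCS1, the enzyme before the rate-limiting step, had 66.5, 48.4, 71.4 and 89.6 RPM in siVPS4A#2 and 414, 413, 787 and 624 in siVPS4A+B#1 (2.98, SE 0.379, adjusted p = 2.48e-07).
MSMO1 (2.12), IDI1 (1.67) and FDPS (1.24), all enzymes of the pathway, rose as well, and no library of the pair overlapped the siVPS4A#2 range in any of these genes.
The CCAAT motif lay in 15 of 18 windows of this list (83.3%), against 37% of all windows and 33% of those of genes called higher.
Of 12 fatty acid synthesis genes 3 rose (ME1 1.57, FASN 1.36, SCD 1.21) and ACACB fell by 0.67 on the log2 scale.

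The largest rises also held genes outside these groups.
CPA4 (chromosome 7, 129932974 to 129964020), a secreted carboxypeptidase, went from 3.39, 5.54, 12.6 and 5.83 to 152, 142, 261 and 354 RPM (4.88, SE 0.389, adjusted p = 3.14e-11).
CD68 (chromosome 17, 7482809 to 7485429), a lysosomal membrane protein used as a macrophage marker, went from 5.95, 5.28, 6.32 and 9.93 to 132, 90.3, 147 and 179 (4.13, adjusted p = 1.48e-07).
NT5E, the ecto-nucleotidase CD73, went from 25.0, 18.7, 25.2 and 25.4 to 216, 257, 346 and 314 (3.52, adjusted p = 7.88e-10).
All 3 genes were separated between the groups in every library, which the rule that named them required.
KRTAP2-3, a hair keratin-associated protein with near-identical relatives between which reads may be split, rose by 3.77, the phospholipase PLA2G4C by 3.19 and VGF, a neuropeptide precursor, by 3.18 on the log2 scale.
VGF varied most within the pair, with 130.2, 498, 139 and 207 RPM against 16.8 to 30.3 in siVPS4A#2.

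Of 15 genes of carboxypeptidases and of protease regulators, such as the plasminogen system, 7 rose, CPA4 included, and 1 fell (median 0.59).
The urokinase PLAU went from 36.1 ± 7.03 to 253 ± 53.4 RPM (SD, n = 4 each, 2.77, adjusted p = 2.3e-08), and its receptor PLAUR rose by 2.36 on the log2 scale.
Of 13 EGFR family, MET and ligand genes 4 rose and 2 fell (median 0.56), among them MET, the receptor for hepatocyte growth factor (1.96), HBEGF (1.59) and EGFR (1.09), while the ligand TGFA fell by 1.06 on the log2 scale.
DKK1, a secreted Wnt inhibitor, went from 13.1, 10.0, 8.85 and 7.56 to 59.9, 64.3, 82.2 and 109 (2.86, adjusted p = 1.73e-07).

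Genes of cell proliferation made up the clearest groups among those that fell.
Of 39 replication-dependent histone genes 35 were called lower and 1, H3C4, higher, with a median of -1.59.
H3C4 (0.99) was named after its value was seen.
H4C8 (chromosome 6, 26277837 to 26285866), a histone H4 gene, had 123, 118, 141 and 117 RPM in siVPS4A#2 and 21.1, 16.9, 17.2 and 10.9 in siVPS4A+B#1 (-2.87, SE 0.262, adjusted p = 6.81e-10), the largest fall after VPS4B.
H3C12 went from 799, 776, 1181 and 833 to 135, 192, 177 and 120 (-2.52, adjusted p = 4.18e-10), and H2BC14 from 109, 129, 148 and 132 to 20.3, 25.4, 21.04 and 15.6 (-2.61, adjusted p = 5e-08).
In each of them the highest library of the pair lay far below the lowest with siVPS4A#2. Groups without overlap were a condition for naming these genes, so their separation is not a separate result.
The fall was spread over the genome's histone clusters: 29 of 33 members on chromosome 6 and 4 of 4 on chromosome 1 were lower (medians -1.59 and -1.23), as were both with no single entry in the annotation, H2BC7 and H4C2.
Histone genes of a class have near-identical coding sequences between which reads may be split, so that single members are uncertain and the summed level is the safer value.
That sum was 19400 ± 894 (SD, n = 4) RPM in siVPS4A#2 and 6100 ± 1140 in siVPS4A+B#1. In siCTRL#1 it was 15900 ± 3060 (SD, n = 5), with no test run on the sum. The siCTRL#1 means of H4C8, H3C12 and H2BC14 were 85.9, 623 and 100 RPM, below every siVPS4A#2 library. The part of this higher siVPS4A#2 level in the falls and in the differences of effect below was not tested.

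Of 45 genes of mitosis and the G2/M phase 38 fell and none rose (median -0.95).
KIF20A, a kinesin of cytokinesis, went from 47.4, 49.9, 58.0 and 63.8 to 12.4, 21.4, 10.9 and 11.5 RPM (-1.93, adjusted p = 7.34e-08), and CENPF, a kinetochore protein, from 271, 289, 354 and 285 to 96.4, 90.4, 91.3 and 82.9 (-1.71, adjusted p = 3.42e-09).
The kinase NEK2 (-1.53), the Aurora A cofactor BORA (-1.28) and RACGAP1 (-1.27), a subunit of centralspindlin, fell as well.
Of 50 DNA replication genes 44 fell and 1 rose (median -1.02).
UHRF1, which carries DNA methylation through replication, went from 152, 187, 165 and 186 to 55.3, 52.3, 49.2 and 44.4 (-1.76, adjusted p = 2.09e-09), and the helicase subunit MCM3 from 442, 508, 379 and 464 to 184, 181, 144 and 143 (-1.46, adjusted p = 1.46e-07).
The primase PRIM1 (-1.24) and the chromatin assembly subunits CHAF1A (-1.25) and CHAF1B (-1.26) fell too, while the exception, cyclin E1 (CCNE1, named after its value was seen), rose by 0.82 on the log2 scale.
Of 24 homologous recombination genes 15 fell and none rose (median -0.80), with RBBP8 (-1.52), RAD54L (-1.51) and FANCD2 (-1.31) among them.

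Fewer of these reached 2-fold: 21 mitotic, 26 DNA replication and 8 recombination genes.
The summed level of the mitotic list was 4370 ± 405 in siVPS4A#2 and 2510 ± 227 in siVPS4A+B#1, and that of the DNA replication list 5700 ± 572 and 2810 ± 214 (SD, n = 4 each). In siCTRL#1 these sums were 4020 ± 293 and 4910 ± 520 RPM (SD, n = 5), with no test run on them.
UBE2S (chromosome 19, 55911113 to 55919156), the ubiquitin-conjugating enzyme that extends chains for the anaphase-promoting complex, went from 514, 569.9, 780.2 and 659 to 145, 89.5, 101.1 and 88.0 (-2.58, SE 0.184, adjusted p = 8.07e-12).
H2AX, the histone variant that marks DNA breaks when phosphorylated, went from 298, 373, 318 and 380.0 to 80.5, 71.9, 57.8 and 47.5 (-2.41, adjusted p = 3.14e-11).
The MYC-network repressor MXD3 (-2.44), the nuclear receptor NR2F1 (-2.21) and the adhesion molecule NCAM1 (-2.19, with 0 to 3 reads in each siVPS4A+B#1 library) were also among the 12 largest falls.

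**Figure D2:**
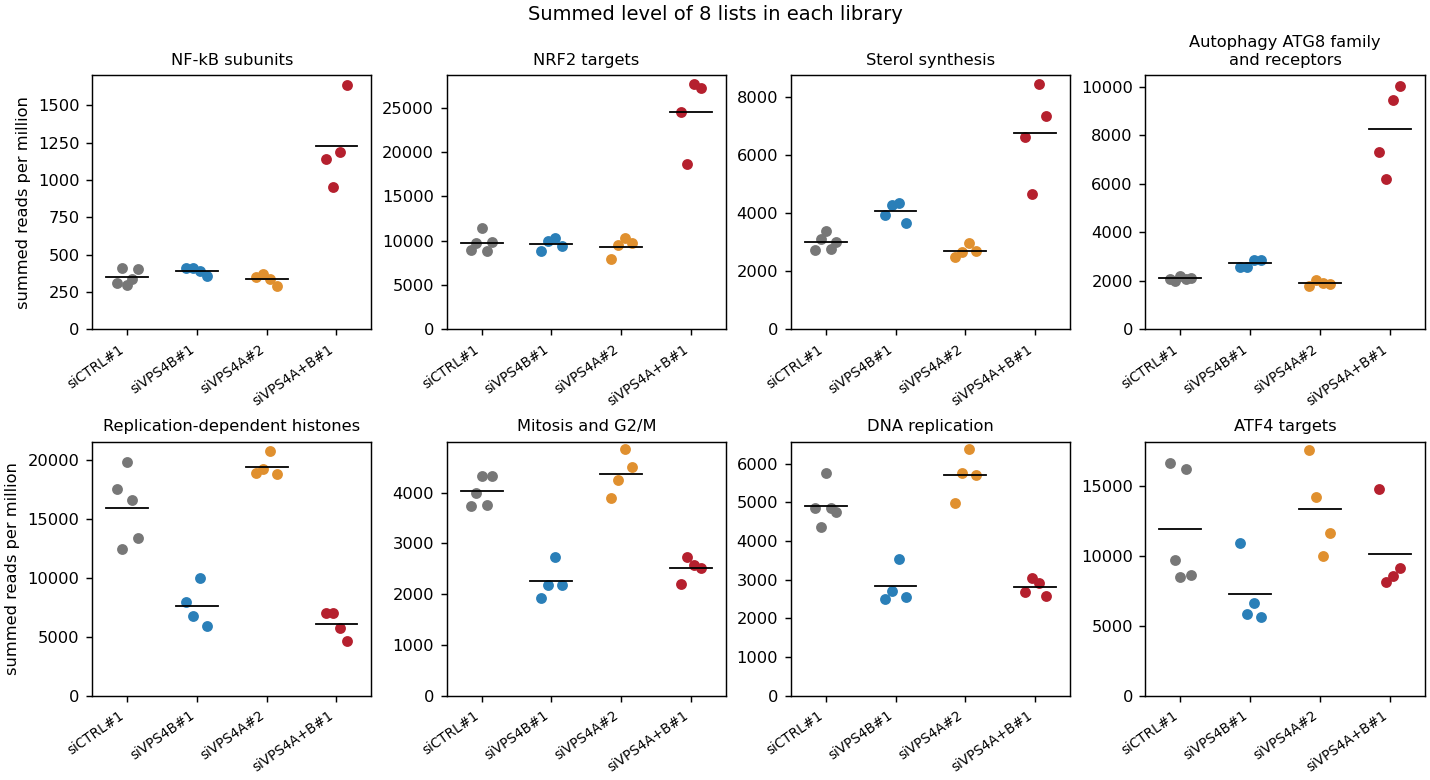
Summed RPM of 8 gene lists in each library of siCTRL#1 (5 libraries) and of siVPS4B#1, siVPS4A#2 and siVPS4A+B#1 (4 each), on linear axes from 0, with bars at the means. The sums of NF-κB subunits, NRF2 targets, sterol and autophagy genes are highest in siVPS4A+B#1, whereas those of histones, mitosis and DNA replication are low in both conditions with siVPS4B#1 and high in both without it.

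Promoter windows of 4 genes that fell are shown for the elements of cell-cycle-regulated genes that they carry (RefSeq, GRCh38.p14, capitals mark the matches on either strand). PLK1 and CCNB2, a mitotic kinase and a mitotic cyclin, were chosen after their values were seen, for the CHR element TTTGAA 29 bases before the start (chr16:23678639-23678938 and chr15:59104896-59105195, both plus strand). PLK1 fell by 1.13 (adjusted p = 0.00116) and CCNB2 by 1.05 on the log2 scale (adjusted p = 0.000184). MCM3 (chr6:52284693-52284992, minus strand) carries the E2F motif TTTNNCGC at 174, 150 and 4 bases before the start, and H2BC14 (chr6:27814772-27815071, plus strand) 5 CCAAT motifs, at 236, 181, 153, 118 and 77 bases before it.
PLK1: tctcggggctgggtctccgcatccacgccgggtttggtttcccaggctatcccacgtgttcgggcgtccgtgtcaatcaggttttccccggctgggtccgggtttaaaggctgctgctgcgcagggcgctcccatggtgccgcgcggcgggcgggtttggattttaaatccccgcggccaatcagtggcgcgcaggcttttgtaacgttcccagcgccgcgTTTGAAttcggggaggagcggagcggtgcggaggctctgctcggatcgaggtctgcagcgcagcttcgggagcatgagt
CCNB2: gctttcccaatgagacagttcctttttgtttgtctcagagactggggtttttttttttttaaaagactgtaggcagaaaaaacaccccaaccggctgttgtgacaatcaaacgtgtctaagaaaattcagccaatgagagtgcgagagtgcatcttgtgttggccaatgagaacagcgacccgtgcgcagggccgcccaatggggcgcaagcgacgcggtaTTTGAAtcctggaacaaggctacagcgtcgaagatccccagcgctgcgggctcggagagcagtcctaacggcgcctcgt
MCM3: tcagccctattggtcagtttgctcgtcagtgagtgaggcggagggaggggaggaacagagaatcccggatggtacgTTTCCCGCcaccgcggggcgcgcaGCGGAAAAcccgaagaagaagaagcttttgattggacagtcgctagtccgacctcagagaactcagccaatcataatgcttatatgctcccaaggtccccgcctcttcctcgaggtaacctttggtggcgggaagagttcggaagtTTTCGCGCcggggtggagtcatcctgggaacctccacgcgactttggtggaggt
H2BC14: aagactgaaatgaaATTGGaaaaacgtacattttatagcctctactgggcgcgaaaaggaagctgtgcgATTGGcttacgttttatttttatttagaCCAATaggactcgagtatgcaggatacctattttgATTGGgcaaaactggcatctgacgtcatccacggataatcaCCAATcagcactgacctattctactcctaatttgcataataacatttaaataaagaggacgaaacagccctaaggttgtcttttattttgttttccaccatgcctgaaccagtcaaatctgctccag

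TTTGAA lay in 25 of 37 windows of the mitotic list (67.6%), in 15.1% of the windows of genes called lower and in 9.53% of all.
TTTNNCGC lay in 24 of 42 windows of the DNA replication list (57.1%) and in 10.6% of all windows.
CCAAT lay in 31 of 35 windows of histone genes (88.6%) and in 46.7% of those of genes called lower.
These are descriptions of letters, and the lists were drawn up for functions that share such elements.

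Targets of ATF4, the transcription factor of the amino acid response, did not move as a block: 12 of 40 fell and 3 rose (median -0.34).
ASNS, asparagine synthetase, had 340.1, 267, 170.1 and 209 RPM in siVPS4A#2 and 138, 42.1, 60.6 and 41.4 in siVPS4A+B#1 (-1.93, SE 0.29, adjusted p = 4.14e-06).
The serine synthesis enzymes PHGDH (-1.74, with overlapping groups) and PSAT1 (-1.45), the mitochondrial PCK2 (-1.77) and SHMT2 (-0.85) fell too.
Replicate 1 was the highest siVPS4A+B#1 library for ASNS, and the sum of the list was 13400 ± 3290 in siVPS4A#2 and 10200 ± 3130 in siVPS4A+B#1 (SD, n = 4 each), lower in 4 of 4 matched pairs, with no test run on the sum.
Of 24 ER chaperone and unfolded protein response genes 5 fell, among them HSP90B1 (-0.75) and MANF (-0.87), and 1 rose, SEL1L (0.96).

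**Figure D3:**
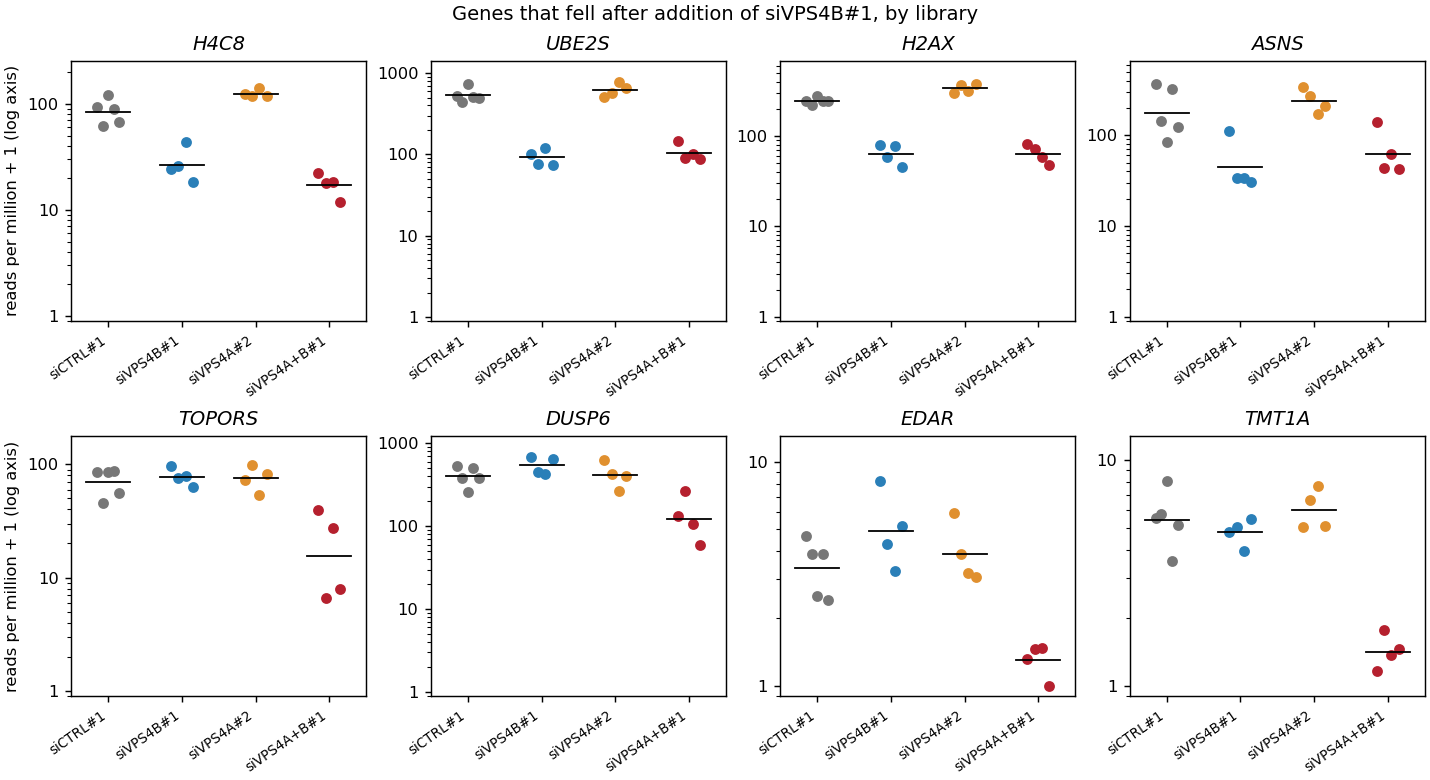
Level of 8 genes that fell, in each library of siCTRL#1 (5 libraries) and of siVPS4B#1, siVPS4A#2 and siVPS4A+B#1 (4 each), as RPM plus 1 on a log axis, with bars at the means of the log values. H4C8, UBE2S, H2AX and ASNS are low in both conditions with siVPS4B#1, whereas TOPORS, DUSP6, EDAR and TMT1A are low, among the conditions shown, where siVPS4B#1 was combined with siVPS4A#2.

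The same duplex was also given without siVPS4A#2, in the 4 siVPS4B#1 libraries (30 nM siVPS4B#1 with 30 nM siCTRL#1), against the 5 siCTRL#1 libraries (60 nM of siCTRL#1).
This comparison shares no library with the first.
There siVPS4B#1 left VPS4A at 204 ± 20.9 RPM (SD, n = 4, against 189 ± 13.8, n = 5) and VPS4B at 0.43 ± 0.333, and it raised 634 genes (5.02%) and lowered 810 (6.41%).
Across the 12627 genes, which are not independent replicates, the 2 sets of log2 fold changes had a Pearson r of 0.633.
Of the 1471 genes raised in VPS4A-silenced cells 367 (24.9%) were also raised by siVPS4B#1 alone, which is 57.9% of the 634, and 4 were lowered.
Of the 1338 lowered genes 558 (41.7%) were also lowered by siVPS4B#1 alone, 68.9% of the 810, and 1 was raised.
The median log2 fold change of the raised genes was 0.85 with siVPS4A#2 and 0.38 without it, and that of the lowered genes -0.85 and -0.54.

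The falls of proliferation genes were seen in both settings.
With siVPS4B#1 alone 32 of 39 histone genes (median -1.05), 38 of 45 mitotic genes (-1.03), 40 of 50 DNA replication genes (-0.90) and 13 of 24 recombination genes (-0.69) were called lower.
UBE2S fell by 2.57 on the log2 scale without siVPS4A#2 and by 2.58 with it, H2AX by 1.99 and 2.41, and ASNS by 2.17 and 1.93.
Of 40 ATF4 targets 24 fell with siVPS4B#1 alone (median -0.81), and none rose.
With siVPS4B#1 alone 0 of 5 NF-κB subunits and 0 of 10 feedback inhibitors were called in either direction by limma, edgeR or DESeq2, and 0 had an unadjusted p under 0.05.
RELB had 21.8 ± 1.25 RPM against 17.9 ± 3.21 in siCTRL#1 (0.16, adjusted p = 0.793).
CXCL8 had 6.77 ± 1.05 against 3.32 ± 0.262 (0.66, adjusted p = 0.573) and BIRC3 7.72 ± 1.06 against 8.84 ± 1.18 (-0.31, adjusted p = 0.757).
CPA4 (1.47), NT5E (1.83), CDKN1A (0.80) and VGF (3.82) were raised by the duplex in both settings.

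The difference between the effects of siVPS4B#1 with and without siVPS4A#2 was then tested as an interaction.
It was called higher for 256 genes (2.03%) and lower for 71 (0.562%).
These counts moved with the libraries used: they were 482 and 301 without the library labelled siVPS4A#1 replicate 2, which belongs to neither comparison but enters the estimate of the spread, 50 and 6 without the libraries of replicate 1, 431 and 263 without replicate 2, 11 and 1 without replicate 3, and 28 and 1 without replicate 4. Leaving out replicate 2 also removes the library labelled siVPS4A#1 replicate 2, which the fits without replicate 1, 3 or 4 keep.
The difference was 5.45 for BIRC3 (limma adjusted p = 0.00015), 5.20 for CXCL8 (adjusted p = 0.00205), 4.79 for TNFRSF9 (0.00104), 4.22 for IL32 (0.000934) and 3.79 for NR4A1 (0.00309), all on the log2 scale.
CPA4 (3.42, adjusted p = 0.000623), SQSTM1 (2.83, 0.000676), HMOX1 (2.20, 0.000934), RELB (2.74, 0.000792), NFKB2 (2.00, 0.00769) and NFKBIA (2.04, 0.00205) were called as well.
Of the 63 named genes with a called difference, 4 kept the call with each replicate left out, BIRC3, CPA4, OSGIN1 and RRP12, while 21 were called without replicate 1, 62 without replicate 2, 4 without replicate 3 and 12 without replicate 4.
CXCL8 lost the call without replicate 3 or 4 (adjusted p = 0.0891 and 0.0585), as did TNFRSF9 (0.0573 and 0.0528) and NFKBIA (0.0683 and 0.0806).
RELB, HMOX1, SQSTM1 and IL32 lost it without replicate 3 (0.0573, 0.0583, 0.0506 and 0.0573), and NR4A1 and NFKB2 without replicate 1 (0.0739 and 0.0575), 3 (0.0942 and 0.117) or 4 (0.0523 and 0.173). Further fits also left out the library labelled siVPS4A#1 replicate 2 and were chosen after the data were seen. CXCL8 then kept its call without replicate 3 (4.79, limma adjusted p = 2.14e-10) and without replicate 4 (4.95, 1.31e-10). So did TNFRSF9 (4.52, 1.03e-09, and 4.36, 1.31e-10). Of 18 differences refitted without that library 17 kept their call, and TNS2 lost it without replicate 4 (0.0554).

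**Figure D4:**
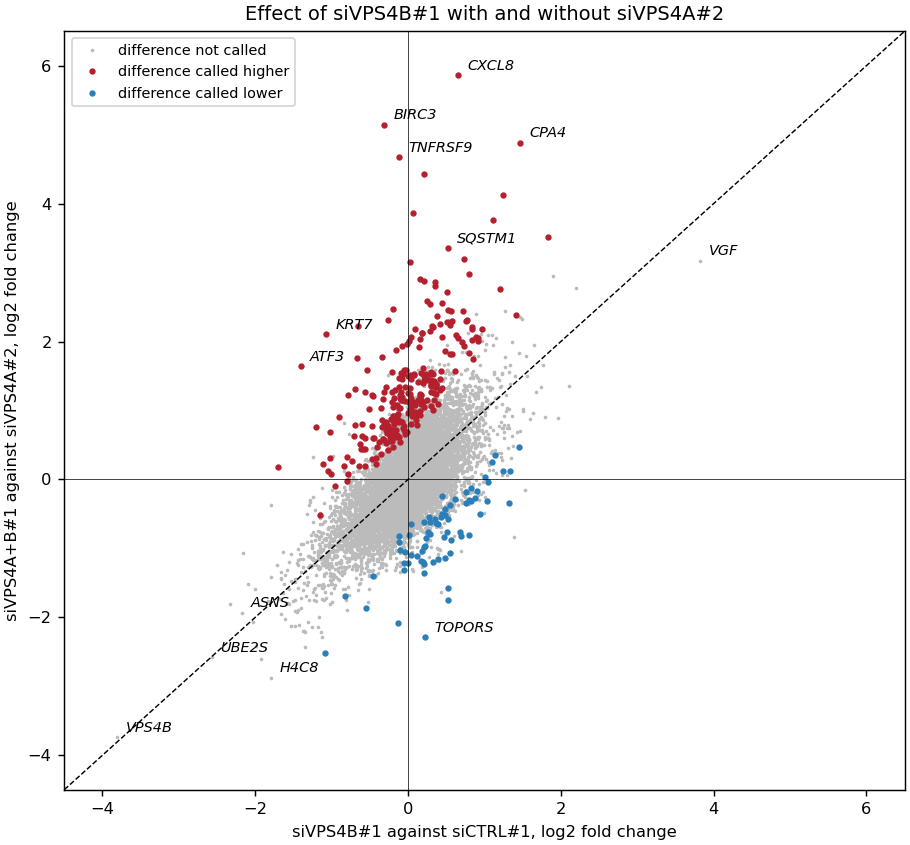
Log2 fold change of each of 12627 genes after siVPS4B#1 in cells without siVPS4A#2 (horizontal axis) and with it (vertical axis), with the line of equal effects dashed and genes coloured where the difference was called (256 higher, 71 lower). CXCL8, BIRC3, CPA4 and TNFRSF9 lie far above the line, UBE2S, ASNS and VGF near it, and TOPORS below it.

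By groups, the difference was called higher for 3 of 5 NF-κB subunits (median 1.07), 7 of 10 feedback inhibitors (1.16), 4 of 17 chemokines and cytokines (0.95), 6 of 18 cIAP, TRAF and NIK genes (0.39), 12 of 34 AP-1 genes (0.41, with 1 lower) and 13 of 24 NRF2 targets (0.97).
These counts moved as well: with each replicate left out in turn they were 0 to 5 subunits, 0 to 8 feedback inhibitors, 0 to 6 chemokines and cytokines, 1 to 7 cIAP, TRAF and NIK genes, 0 to 12 AP-1 genes and 1 to 14 NRF2 targets.

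No histone gene was called higher and 2 of 39 were called lower (median -0.54), H3C12 among them (-1.43, adjusted p = 0.00747). The number lower was 6 without the library labelled siVPS4A#1 replicate 2 and 4 without replicate 2. It was 1 without replicate 1 and 0 without replicate 3 or 4.
Limma called 0 of the 45 mitotic (median 0.01), 50 DNA replication (-0.12) and 24 recombination genes (-0.08) and 0 of the 40 ATF4 targets (0.35) in either direction.
At an unadjusted p under 0.05 the difference was higher for 2 mitotic genes, 1 recombination gene and 8 ATF4 targets and lower for 2 mitotic and 5 DNA replication genes, DESeq2 called 2 mitotic genes and 1 DNA replication gene lower and 1 ATF4 target higher, and edgeR called 3 ATF4 targets higher. Without the library labelled siVPS4A#1 replicate 2, limma called 3 ATF4 targets and 1 mitotic gene higher and 2 mitotic genes lower. Without replicate 2 it called 4 ATF4 targets and 1 mitotic gene higher, and 3 mitotic genes and 1 DNA replication gene lower. Without replicate 1, 3 or 4 limma called none of the members of these lists.
Sterol synthesis genes lay between, with 2 of 25 called (median 0.65), or 11 without the library labelled siVPS4A#1 replicate 2, 12 without replicate 2 and 0 without replicate 1, 3 or 4.
VGF rose in both settings, by 3.82 without and 3.18 with siVPS4A#2, and its difference of -0.64 had an adjusted p of 0.473.
A difference that misses the threshold does not show that the effects were equal.

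For other genes the effect of siVPS4B#1 was lower with siVPS4A#2 than without it, by the test of the difference. Such a difference does not say that the gene also fell with siVPS4B#1 alone.
TOPORS (chromosome 9, 32540542 to 32552584), a ubiquitin and SUMO ligase, had 71.8, 98.7, 52.9 and 82.1 RPM in siVPS4A#2 and 38.8, 5.62, 26.7 and 6.85 in siVPS4A+B#1 (-2.29, SE 0.494, adjusted p = 0.000521).
With siVPS4B#1 alone it had 77.9 ± 14.2 against 71.0 ± 19.8 in siCTRL#1, and the difference of the effects was -2.51 (adjusted p = 0.0407, and 0.0816 without the replicate block).
The 4 libraries of the pair were uneven for this gene, replicates 2 and 4 being far lower than 1 and 3.
TMT1A, a methyltransferase-like protein, went from 4.03, 5.68, 6.67 and 4.10 RPM to between 1 and 5 reads in each library (-2.09, adjusted p = 3.28e-06, difference -1.96).
EDAR went from 4.94, 2.90, 2.18 and 2.05 to between 0 and 4 reads (-1.58, difference -2.10), and DUSP6 (-1.75) had a difference of -2.28 (adjusted p = 0.00898).
KISS1R, the kisspeptin receptor (-1.14, difference -1.63), and TNS2, a tensin of focal adhesions (-1.07, difference -1.62), complete the 6 lowest.
All of these differences other than the one for KISS1R lost the call without replicate 1, and all 6 lost it without replicate 3 and without replicate 4.

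A second pair of duplexes, siVPS4A+B#2 (30 nM siVPS4A#1 with 30 nM siVPS4B#2) against siVPS4A#1 (5 libraries, with 30 nM siCTRL#1), shares no library and no on-target duplex with the first.
There 851 genes rose (6.74%) and 635 fell (5.03%), or 1079 and 1128 without the library labelled siVPS4A#1 replicate 2, 459 and 404 without the libraries of replicate 3 and 1064 lower without those of replicate 2, which include that library.
The Pearson r of its log2 fold changes with those of the first pair was 0.251 across the 12627 genes, or 0.410 without that library.
Of the genes that rose in the first pair 296 rose here too, 20.1% of the 1471 and 34.8% of the 851, and 42 fell.
Without that library 492 rose in both, 34.2% of 1439 and 45.6% of 1079.
Of those that fell 112 fell here too, 8.37% of the 1338 and 17.6% of the 635, and 91 rose.
Without it 317 fell in both, 20.7% of 1529 and 28.1% of 1128.
The median log2 fold changes of the first pair's raised and lowered genes were 0.25 and -0.01 in the second, or 0.38 and -0.16 without that library.
The difference between the pairs was called higher in the first for 1079 genes (8.55%) and lower for 1250 (9.9%), or 1123 and 1276 without it.

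Several groups that rose in the first pair had raised members in the second, whereas few members of the groups that fell did so there.
NF-κB subunits (4 of 5 higher, median 0.99), NRF2 targets (16 of 24, with 1 lower, 1.21), sterol synthesis genes (21 of 25, 1.00), AP-1 genes (15 of 34, with 1 lower, 0.56), feedback inhibitors (4 of 10, 0.57) and chemokines and cytokines (7 of 17, 0.50) had raised members with siVPS4A+B#2.
Without the library labelled siVPS4A#1 replicate 2 the numbers higher were 4 subunits (median 1.40), 19 NRF2 targets (1.33, with 1 lower), 21 sterol genes (1.20, with 1 lower), 17 AP-1 genes (0.72, with 3 lower), 7 feedback inhibitors (0.86) and 11 chemokines and cytokines (0.79).
CXCL8 (3.07), BIRC3 (3.83), TNFRSF9 (3.33), RELB (1.70), NFKBIA (1.52), SQSTM1 (2.21) and HMGCS1 (2.62) rose in the second pair, and HMOX1 rose by 5.00 on the log2 scale.
Without that library the log2 fold changes were 4.51 for CXCL8, 4.95 for BIRC3, 4.55 for TNFRSF9, 2.33 for RELB, 2.00 for NFKBIA, 2.86 for SQSTM1, 3.35 for HMGCS1 and 5.47 for HMOX1.
In contrast, 1 of 39 histone genes fell and 3 rose (median 0.18), 1 of 45 mitotic genes fell and 9 rose (0.34), and 11 of 50 DNA replication genes rose and none fell (0.39).
Without that library 2 histone genes (median 0.10), 16 mitotic genes (0.49, with 1 lower) and 10 DNA replication genes (0.44) were higher.
These values are against siVPS4A#1, where such genes were already low.
The summed level of the histone list was 15900 ± 3060 RPM in siCTRL#1 (SD, n = 5), 4740 ± 1240 in the other 4 siVPS4A#1 libraries and 5530 ± 926 in siVPS4A+B#2.
That of the mitotic list was 4020 ± 293, 1270 ± 245 and 1890 ± 217, and that of the DNA replication list 4910 ± 520, 2250 ± 402 and 3010 ± 193.
Both conditions of the second pair thus lay below siCTRL#1, by levels with no test run here, and the absence of a fall between them does not say that siVPS4A+B#2 left these genes at the control level.
The difference between the pairs was called lower in the first for 34 histone, 35 mitotic, 41 DNA replication and 16 recombination genes. Without the library labelled siVPS4A#1 replicate 2 these counts were 34, 41, 45 and 17.
UBE2S rose by 0.87 in the second pair, or by 0.72 without that library. Its level was 148 RPM in the other 4 siVPS4A#1 libraries, against 541 in siCTRL#1. ASNS rose by 1.88, or by 2.10 without that library. It went from 21.6 RPM in those 4 libraries to 95.8 in siVPS4A+B#2, against 207 in siCTRL#1. Of 40 ATF4 targets 19 rose there with none lower (median 0.65). Their summed level was 12000 ± 4150 RPM in siCTRL#1 (SD, n = 5), 5190 ± 623 in the other 4 siVPS4A#1 libraries and 9960 ± 974 in siVPS4A+B#2, with no test run on the sum.
NT5E had a log2 fold change of 0.05 in the second pair (adjusted p = 0.936), and of 0.65 (0.00588) without the library labelled siVPS4A#1 replicate 2, in which it lay at 272 RPM against 43.1 to 57.7 in the other 4.
CSF1 likewise had 0.68 (adjusted p = 0.118), and 1.17 (7e-05) without that library, while CDKN1A had -0.12 (0.689) and -0.36 (0.0844). The level of CDKN1A was 708 RPM in siCTRL#1, 2790 ± 563 in the other 4 siVPS4A#1 libraries and 2119 ± 322 in siVPS4A+B#2, with no test run on these levels.
EGFR fell by 0.94 and TMT1A by 1.96 on the log2 scale in the second pair. Their log2 fold changes without the library labelled siVPS4A#1 replicate 2 were -0.77 and -2.44.

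**Figure D5:**
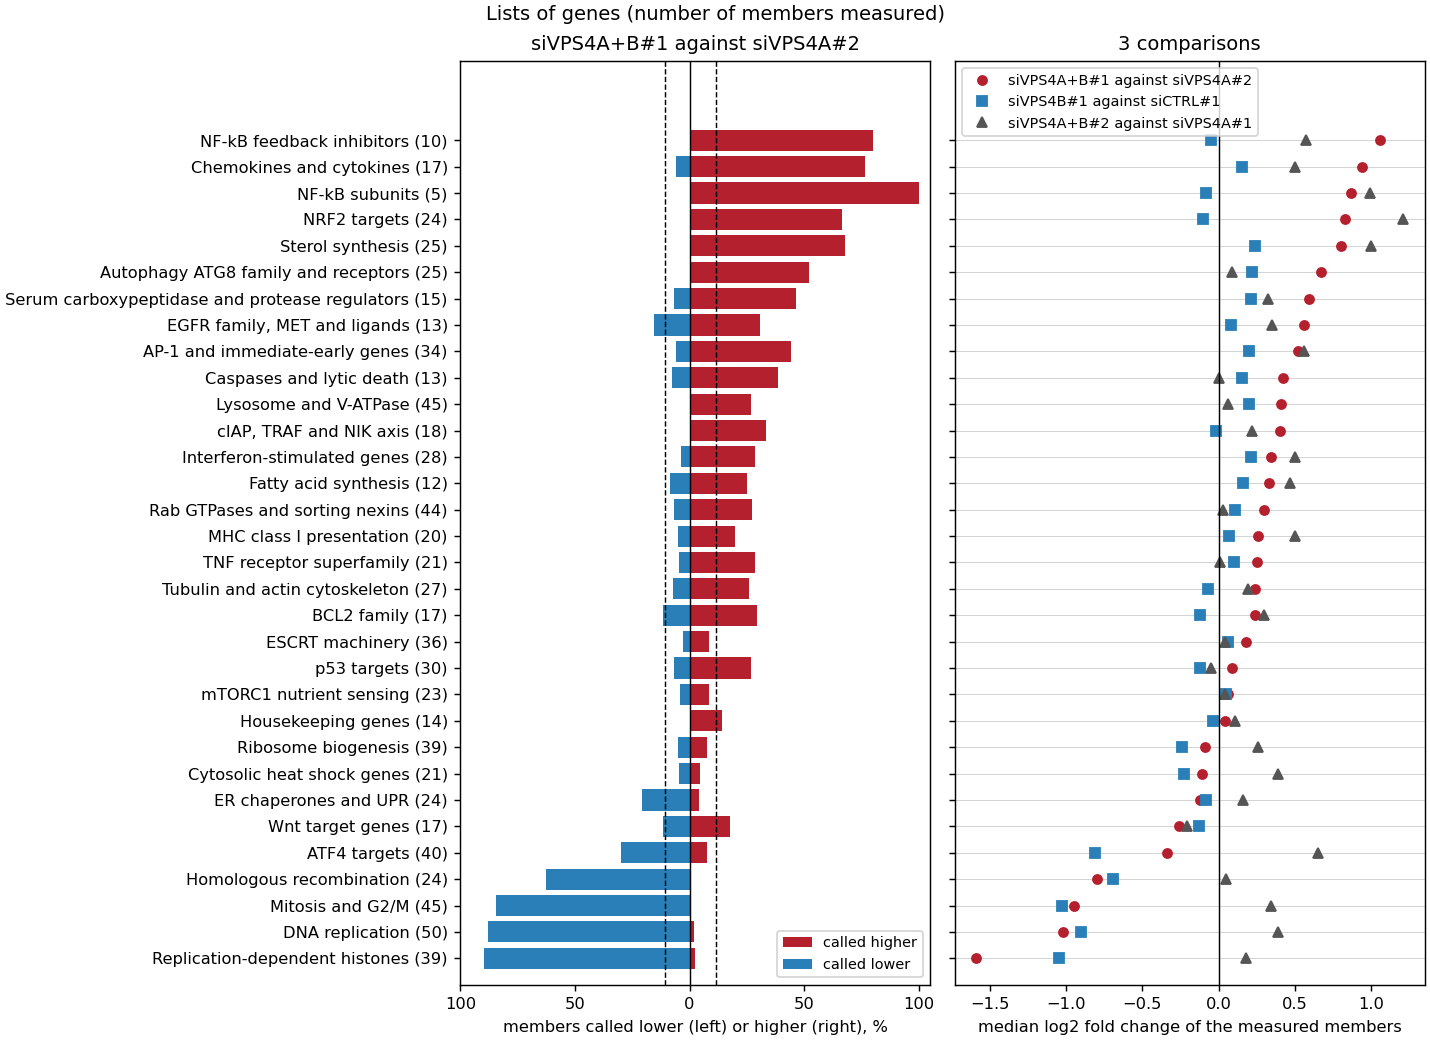
Share of the measured members of the gene lists called higher or lower in siVPS4A+B#1 against siVPS4A#2 (left, shares over all 12627 genes, 11.6% and 10.6%, dashed) and median log2 fold change of each list in that comparison, in siVPS4B#1 against siCTRL#1 and in siVPS4A+B#2 against siVPS4A#1 (right). The NF-κB, NRF2 and sterol lists are higher in both pairs, and the proliferation lists are lower in both comparisons of siVPS4B#1 but not in the second pair, whose baseline siVPS4A#1 was already low in them (histone sum 4740 RPM against 15900 in siCTRL#1).

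Further lists moved little or unevenly.
Of 36 ESCRT genes 3 rose (CHMP1B 1.35, VPS25 0.68, CHMP5 0.59) and SNF8 fell by 0.82 on the log2 scale (median 0.18), shares below those over all genes.
Of 44 Rab GTPases and sorting nexins 12 rose and 3 fell (median 0.30), with RAB22A (1.13) and RAB7A (0.79) higher and RAB17 (-1.21) lower, and 6 rose without replicate 4.
Of 28 interferon-stimulated genes 8 rose and 1 fell (median 0.34), led by ISG15 (1.48) and RIGI (1.12), and 5 rose without replicate 1.
Of 20 MHC class I presentation genes 4 rose, B2M (1.07) and TAP1 (1.05) among them, and PSMB9 fell by 0.63 on the log2 scale.
In the BCL2 family 5 of 17 rose and 2 fell (median 0.24), with the BH3-only genes PMAIP1 (1.34) and BIK (1.02) next to MCL1 (0.76).
Among 13 caspases and genes of lytic death 5 rose and CASP2 fell by 1.06 on the log2 scale (median 0.42), and the number that rose was 2 without replicate 3 and 3 without replicate 4.

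The tubulin and actin cytoskeleton list also held keratin and lamin genes. Of its 27 members 7 rose and 2 fell (median 0.24), with TUBB2A (1.75) and the keratin KRT7 (2.10) higher and the lamin LMNB1 (-1.59) lower.
Of 17 Wnt target genes 3 rose and 2 fell (median -0.26), of 39 ribosome biogenesis genes 3 rose and 2 fell (-0.09), and of 23 genes of nutrient sensing by mTORC1 2 rose and 1 fell (0.06).
Of 21 cytosolic heat shock genes HSPB1 rose (0.62) and HSF2 fell (-0.63), with a median of -0.11.
Of 14 housekeeping genes 2 rose, B2M and TFRC (0.79), and none fell (median 0.04).
Where limma called 0 members of a list in a direction after addition of siVPS4B#1, at most 3 members (in the lysosomal list) had an unadjusted p under 0.05 in that direction, and DESeq2 and edgeR called at most 1 (in the sterol list).

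The 4 siVPS4A+B#1 libraries were not alike.
Among the 12 largest rises replicate 2 was the lowest of the 4 in 9 genes, replicate 1 in 2 and replicate 3 in 1.
Over all 1471 genes that rose, the lowest library was replicate 2 in 37% and replicate 4 in 11.5%.
Among the 12 largest falls the highest library was replicate 1 in 7 and replicate 2 in 5, and over all 1338 genes that fell replicate 1 in 36.2% and replicate 4 in 13.3%.
Replicate 2 also held the most VPS4A (33.9 RPM) and replicate 4 the least (10.7), and whether the responses followed VPS4A was not tested.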

How the data were processed

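The authors amplified transcripts with an Ion AmpliSeq panel (hg19), sequenced them on an Ion Proton, aligned with the Torrent mapper and counted with HTSeq 0.6.0. They used DESeq2 1.18.1. Each deposited value is a signal: the part of a library's reads that fell on a gene, so that the 12627 genes sum to 1, and whether the filter of the study's methods, on genes with few reads and on non-coding genes, made this table is not stated. Reads per gene were recovered as whole multiples of the share of 1 read (at least 99.9% of sharply printed values were whole within 0.1 read). An edgeR test had been planned for counts. For these normalized values the main test was limma 3.58.1 with an intensity trend on log2(TMM reads per 1000000 + 1), with 9 conditions and the replicate number as terms, over all 38 libraries, in R 4.3.3, and with Benjamini-Hochberg adjustment. The spread is shared by all libraries. DESeq2 1.42.0 and edgeR 4.0.16 on the recovered reads were alternatives. Single values were compared by 2-sided exact permutation tests, and scripts were tested on simulated data.

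Replicate numbers pair the libraries because the labels give each number a shared batch. Deviations of same-numbered libraries of both groups from their group means correlated at 0.294, -0.205, 0.524 and -0.3 (9555 genes, replicates 1 to 4). Genes were named by rule: both targets, the 12 largest rises and falls with the same sign in 4 pairs and no overlap, up to 5 called members of each list by adjusted p, and the 6 largest and 6 lowest called differences of effect. The genes, lists and comparisons were chosen with earlier results of these data known. Floors cover only counting error, because reads made by PCR are not separate molecules. The siRNA sequences were not used here, and some genes that the rule names are not reported here. Python 3.11.15, numpy 2.4.6, pandas 2.3.3 and matplotlib 3.10.9 made tables and figures.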

Additional observations from a re-analysis of the deposited data

Results flagged for a closer look

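Of 62 groups of 4 libraries examined for the genes with the largest changes, 4 had a library far from the other 3, against about 1 in 20 groups that chance flags. The gap to the nearest library was 0.942 of the range for NT5E, 0.860 for H3C12 and 0.877 for H2AC4 in siVPS4A#2, and 0.831 for KISS1R in siVPS4A+B#1.

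The effect of siVPS4B#1 on 256 genes was higher, and on 71 lower, where VPS4A was silenced than where it was not, by the test of the difference itself. On the log2 scale the difference was 5.20 for CXCL8, 5.45 for BIRC3, 3.42 for CPA4, 4.79 for TNFRSF9, 4.22 for IL32, 2.88 for CD68, 3.79 for NR4A1, 2.65 for KRTAP2-3, 1.69 for NT5E, 2.83 for SQSTM1 and 2.46 for PLA2G4C. It was -1.43 for H3C12, -2.51 for TOPORS, -2.10 for EDAR, -2.28 for DUSP6, -1.96 for TMT1A, -1.63 for KISS1R and -1.62 for TNS2. Between the first and the second pair of duplexes the effect of the added VPS4B duplex was higher for 1079 genes and lower for 1250 by the same kind of test.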

How the results depend on the processing

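Addition of siVPS4B#1 to siVPS4A#2 raised 1156 to 1534 genes and lowered 1072 to 1601 with each replicate number left out in turn. Without the replicate block the counts were 1437 and 1275, with DESeq2 1546 and 1656, with edgeR 1661 and 1574, and without the library labelled siVPS4A#1 replicate 2 they were 1439 and 1529. With library totals alone 968 rose, and at a fold of at least 2 the counts were 517 and 431. Of 169 named genes 146 kept their call and 0 reversed under all 16 alternatives to the fit, and 149 kept it without each replicate. All 169 were called and were picked from the main fit for large or strongly called changes. Their stability therefore does not measure that of all called genes.

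For siVPS4B#1 against siCTRL#1 a fold of at least 2 left 125 higher and 248 lower. The difference of the siVPS4B#1 effect was called higher for 169 genes without the replicate block, 394 with DESeq2, 160 with library totals, 443 with the compared conditions alone, 11 to 431 with each replicate left out and 482 without the library labelled siVPS4A#1 replicate 2. It was called lower for 30 without the block, 265 with DESeq2, 142 with edgeR, 246 with the compared conditions alone, 1 to 263 with each replicate left out, 301 without that library, 154 without it and replicate 1, and 45 at a fold of at least 2. In the settings without that library, of which those that also leave out a replicate were chosen after seeing the data, 17 of 18 named differences kept their call, against 2 with each replicate left out alone. With that library and replicate 1 out the difference was called higher for 345 genes and lower for 154. The counts were 259 and 104 with it and replicate 3 out, and 274 and 102 with it and replicate 4 out.

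In the second pair, higher counts were 503 with library totals, 9 with the compared conditions alone, 459 to 1047 with each replicate left out and 217 at a fold of at least 2. Lower counts were 1058 with DESeq2, 1000.0 with edgeR, 1024 with library totals, 3 with the compared conditions alone, 404 to 1064 with each replicate left out, 1128 without the library, 1074 and 1217 without it and replicate 1 or 4 (higher, 1219 without it and replicate 1), and 117 at a fold of at least 2. Between the pairs the counts were 486 and 628 with the compared conditions alone and 476 and 662 at a fold of at least 2. The exact test of VPS4A gave 1.00 (p = 0.0571) with library totals. The cause was not tested for these, except that a higher fold leaves fewer calls by construction. A level resting on 3 reads or fewer could not be told from 0.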
